A study of Mus musculus with 2 samples.

Results

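The cells described here are epithelial cells of the mouse uterus in which the transcripts of Cited1, Efhd1 and Ankrd37 outweighed those of the other epithelial gene sets considered. Barcodes were taken as cells when they held 1000 or more unique molecular identifiers (UMIs, 1 per captured RNA molecule) from 500 or more genes, with no more than 20% of them mitochondrial. It counted as epithelial with at least 3 UMIs on Epcam, Cdh1, Cldn3 and Cldn4 together and none on Ptprc or Pdgfra, which mark leukocytes and fibroblasts. Members had at least 2 UMIs on set C (Cited1, Efhd1, Ankrd37), and more than on set A (Cxcl17, Clca1, Car12) and more than on set B (Sprr2d, Krt6a, Dmkn). Members were thus chosen by the UMI counts of these genes, and numbered 347 of 1250 epithelial barcodes and of 7076 cells. Because they were selected on measured values, every difference between them and other epithelial barcodes below is a description without a test.

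Whole uteri were dissociated by a 5 hour collagenase digestion and profiled by droplet RNA sequencing from the 3-prime end of transcripts. There were 2 libraries, each a pool of 3 female C57BL/6J mice aged 6 months. The library labelled control came from Prickle1 f/f mice and the library labelled cKO from Prickle1 f/f MiC mice, in which Prickle1, a planar cell polarity gene, is the named target. Both libraries carry the floxed allele, the genotype field reads wild-type for both, and neither the meaning of MiC nor the cells in which it acts is stated. Prickle1 had 96 UMIs in all cells of the library labelled control and 265 in those of the library labelled cKO, so its count was not lower under the cKO label. The kit reads the 3-prime end and the labels do not give the deleted exons, so these counts do not check the deletion. In members it had 4 UMIs in the control library and 1 in the cKO library, too few to compare. With 1 pooled library per group there is no replicate, so the intervals given cover counting error only, at 95%, and not the variation between mice or digestions.

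Cited1 is a transcriptional co-regulator that binds CBP and p300, Efhd1 is a calcium-binding protein of mitochondria, and Ankrd37 is an ankyrin repeat protein whose gene is a known target of hypoxia-inducible factors. Those factors bind DNA elements with the core ACGTG and switch on glucose uptake, glycolysis and the removal of mitochondria when oxygen is low. A separate programme, the unfolded protein response, raises chaperones of the endoplasmic reticulum (ER) through elements that join CCAAT and CCACG. It also acts through the factors ATF4 and CHOP. The uterine epithelium lines the lumen and the glands, secretes antimicrobial proteins such as lipocalin 2 (Lcn2), and responds to ovarian steroids.

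The promoter sequences of the 3 set C genes are shown because these genes define the members, and those of 3 ER chaperone genes because they hold the longer motif described here; they were picked for that and do not stand for their lists. They are the 250 bases before a transcription start in RefSeq (GRCm38.p6), written 5′ to 3′ along the gene. Capitals mark ACGTG, or the outer letters of a longer motif, CCAAT and CCACG with any 9 bases between. Both strands were searched, so capitals can show the reverse complement. The motifs can share letters where ACGTG lies in that gap or where the longer motif is followed by T.
Ankrd37, chr8:45999851-46000100, minus strand: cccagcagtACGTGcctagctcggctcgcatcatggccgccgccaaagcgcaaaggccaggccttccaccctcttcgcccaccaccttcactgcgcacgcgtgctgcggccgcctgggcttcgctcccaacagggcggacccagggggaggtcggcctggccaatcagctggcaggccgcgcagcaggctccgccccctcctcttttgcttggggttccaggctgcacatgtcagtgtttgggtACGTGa
Cited1, the second of 3 RefSeq starts, chrX:102251844-102252093, minus strand: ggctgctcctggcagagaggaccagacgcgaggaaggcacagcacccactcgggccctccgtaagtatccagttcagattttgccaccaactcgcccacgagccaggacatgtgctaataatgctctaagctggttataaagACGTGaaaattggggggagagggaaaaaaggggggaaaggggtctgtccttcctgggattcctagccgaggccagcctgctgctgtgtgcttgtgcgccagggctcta
Efhd1, chr1:87264103-87264352, plus strand: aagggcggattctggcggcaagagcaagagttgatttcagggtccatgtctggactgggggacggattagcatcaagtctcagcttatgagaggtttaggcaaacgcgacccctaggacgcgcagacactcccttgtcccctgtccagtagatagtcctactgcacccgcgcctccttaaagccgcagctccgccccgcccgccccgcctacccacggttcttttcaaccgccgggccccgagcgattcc
Hspa5, chr2:34771840-34772089, plus strand: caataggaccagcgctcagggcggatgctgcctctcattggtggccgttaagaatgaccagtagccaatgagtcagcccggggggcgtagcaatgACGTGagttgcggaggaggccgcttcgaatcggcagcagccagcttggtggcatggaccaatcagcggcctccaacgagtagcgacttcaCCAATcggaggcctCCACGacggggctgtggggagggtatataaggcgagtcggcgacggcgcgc
Creld2, chr15:88819396-88819645, plus strand: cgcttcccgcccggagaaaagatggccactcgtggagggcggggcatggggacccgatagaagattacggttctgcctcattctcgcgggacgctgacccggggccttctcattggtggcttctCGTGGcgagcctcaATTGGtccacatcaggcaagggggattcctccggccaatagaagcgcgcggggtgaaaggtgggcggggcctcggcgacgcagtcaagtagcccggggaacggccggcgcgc
Hsp90b1, chr10:86705445-86705694, minus strand: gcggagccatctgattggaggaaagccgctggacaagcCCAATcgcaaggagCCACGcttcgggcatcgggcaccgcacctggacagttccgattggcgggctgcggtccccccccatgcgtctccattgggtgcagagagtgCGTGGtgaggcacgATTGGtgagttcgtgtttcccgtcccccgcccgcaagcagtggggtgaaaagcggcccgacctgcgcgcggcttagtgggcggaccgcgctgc
The motif search used the same windows with 50 further bases after the start. Ankrd37 held ACGTG 241 and 6 bases before its start, Cited1 held it in 1 of its 3 windows, and the Efhd1 window held neither motif. ACGTG was in 6447 of all 32851 promoter windows (19.6%), or in 21.8% of genes when any window of a gene was counted. Of the hypoxia response list of 26 genes, Ankrd37 included, 23 matched the RefSeq table and 17 of those (73.9%) held it. The longer motif was in 39 windows (0.119%) and 37 genes. It was in 1 of the 14 matched genes of the integrated stress and unfolded protein list (Hspa5) and in 0 of the 23 of the hypoxia list. ACGTG was in 6 of those 14. A match describes the letters in these windows and is not a binding site shown by these data.

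The library labelled control held 337 members among 1159 epithelial barcodes (29.1%, exact binomial interval 26.5% to 31.8%), and the library labelled cKO held 10 among 91 (11%, 5.40% to 19.3%). As a share of all cells these were 9.66% of 3490 (8.70% to 10.7%) and 0.279% of 3586 (0.134% to 0.512%). The epithelial barcodes themselves made up 33.2% of cells in the control library and 2.54% in the cKO library, so most of the gap in members per cell accompanied a gap in all epithelium. Whether the tissue, the digestion or the capture differed between the pools cannot be told apart here. Total depth was 45035801 UMIs in the control library and 34261441 in the cKO library. The libraries shared 6 cell barcodes, and 0 of them were members. Outside the epithelial gate, 45 control cells and 36 cKO cells met the set C rule.

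Membership was graded. In the control library 70 members had exactly 2 set C UMIs, 114 had 3 to 9 and 153 had 10 or more, and 37 led the next set by 1 UMI. Just outside the rule lay 209 epithelial barcodes with 1 set C UMI, 83 of them with none on sets A and B, and 162 with 2 or more that were tied with set A or B (28) or below one of them (134). Members often carried the other sets too: 234 had at least 1 set A UMI and 53 at least 1 set B UMI. Depth entered the rule, since more UMIs give more chances to reach 2. The members' median was 9480 UMIs against 7588 in set A barcodes, 5352 in set B barcodes and 2794 in barcodes of no set. When every barcode was thinned to 1000 UMIs, 8.20% of control epithelial barcodes met the rule. Free RNA at 5% of a barcode's UMIs would bring 0.0848 set C UMIs to the median control member and 1.49 to the deepest, given the empty droplets of that library.

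Co-detection of the 3 genes in members is a description of the values that chose them, and it rises with depth. In the control library all 3 had a UMI in 150 members (44.5%), 2 of them in 127 and 1 in 60. Cited1 had a UMI in 235 members, Efhd1 in 277 and Ankrd37 in 252. The pairs overlapped in 187 members for Cited1 and Efhd1 (79.6% of the first and 67.5% of the second), in 183 for Cited1 and Ankrd37 (77.9% and 72.6%) and in 207 for Efhd1 and Ankrd37 (74.7% and 82.1%). Levels were computed as UMIs summed over barcodes, scaled so that all genes of the same barcodes sum to 1e+06 (CPM). Cited1 stood at 285 CPM in members, 48.1 in set A and 9.02 in set B barcodes. Efhd1 stood at 439, 84.0 and 21.5 CPM, and Ankrd37 at 420, 96.9 and 30.5 CPM. These 3 genes defined the rule, so their order between groups was fixed by it. In empty droplets of the control library they had 38.5, 75.8 and 64.5 CPM, below the 48.1, 84.0 and 96.9 CPM of set A barcodes.

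The gate set the epithelial part of the label in advance, and the label's further marker, Lcn2, did not set the members apart. Keratin genes of simple epithelia were high: Krt8 had 5651 CPM in members and 3317 in all other epithelial barcodes, Krt18 had 2402 and 1464, and Krt19 had 2281 and 1296. Markers of most other cell types were scarce, which the gate favoured by allowing no UMI on Ptprc or Pdgfra. The other epithelial barcodes passed the same gate. T or NK cell genes summed to 1.03 CPM with Nkg7, Klrb1c and Cd8a at 0, and neutrophil genes to 0.129 CPM with 4 of 5 at 0. The macrophage list summed to 79.5 CPM, of which Cd68 made up 76.3 CPM. Fibroblast genes summed to 120 CPM in members, 96.1 in set A, 794 in set B and 612 in barcodes of no set. The erythroid or platelet list was highest in members, with 227 CPM against 19.5, 36.8 and 33.7 in those groups. Its globin genes rested mostly on 1 barcode, given below. Dendritic cell genes summed to 7.73 CPM in members, 0.685 in set A, 8.33 in set B and 1.50 in no set. Ciliated cell markers were at 0 for 6 of 9 genes, and glandular markers for 6 of 10, while Foxa2, a regulator of gland formation, had 0.258 CPM. Lcn2, the iron-binding antimicrobial protein, had a UMI in 311 of 337 members but a lower summed level (3635 CPM) than in set A barcodes (5101 CPM). Against all other epithelial barcodes its log2 ratio was -0.24, which turned to 0.17 when each barcode was weighted equally.

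Of 5792 genes compared between members and the other epithelial barcodes of the control library, 254 were at least 2-fold higher (4.39% of genes) and 339 at least 2-fold lower (5.85%). A gene was compared with at least 20 CPM in either group and 20 UMIs in both together, and log2 ratios were taken after adding 5 CPM to each side, which understates low genes. Higher genes thus made up 42.8% of those past the threshold; median of ratios scaling moved that to 62.9%, and the median log2 ratio of the same genes from 0.04 to 0.21. Against set A barcodes 327 of 5763 genes were higher (5.67%) and 390 lower (6.77%), and higher genes went from 45.6% to 61.6% under the other scaling. Against set B barcodes 566 of 6009 were higher (9.42%) and 700 lower (11.6%), moving from 44.7% to 59.3%. Depth moved with these counts: 167 of 337 members held over 2 times the median epithelial depth. Without such deep barcodes in either group, 101 of 5832 genes were higher and 232 lower than in other epithelial barcodes. Higher genes then made up 30.3%. Doublets were not removed, and their part in these differences was not tested.

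**Figure D1:**
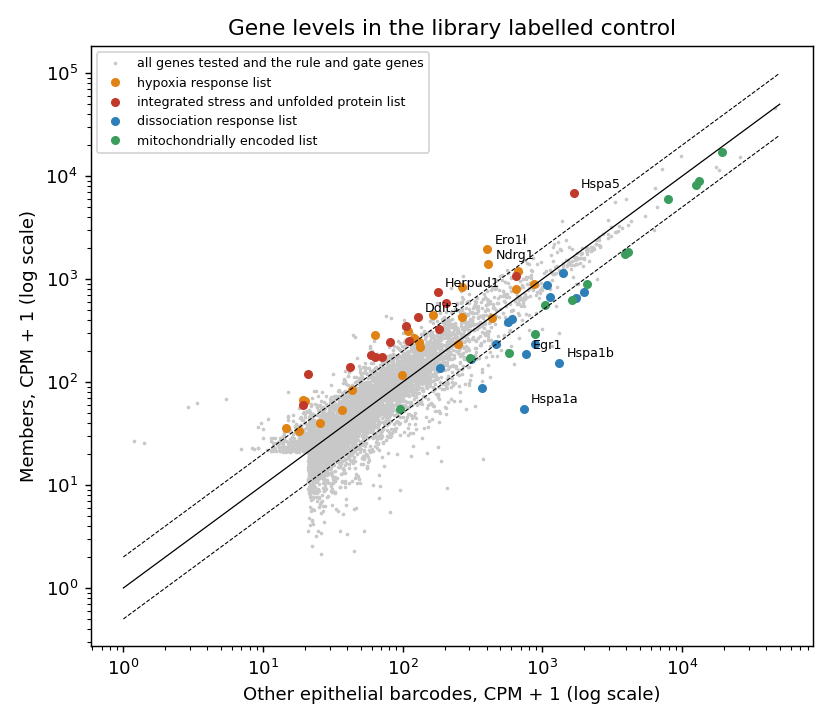
Level of each gene in members (vertical axis, CPM + 1, log scale) and in all other epithelial barcodes (horizontal axis, CPM + 1, log scale) of the library labelled control; the solid line marks equal levels and the dashed lines 2-fold differences. Hspa5, Ero1l, Ndrg1 and Herpud1 lie above the upper dashed line, and Hspa1a, Hspa1b and Egr1 below the lower one.

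Genes of the unfolded protein response were high in the members. Of 15 genes in the integrated stress and unfolded protein list, all 15 were above a log2 ratio of 0. Of these 13 were at least 2-fold higher than in other epithelial barcodes, beside 4.39% of all genes compared. The median log2 ratio was 1.56 beside 0.04 over all genes compared. The list took 1.16% of the members' UMIs, against 0.35% in set A, 0.26% in set B and 0.49% in barcodes of no set. Hspa5, the master chaperone of the ER (BiP), had 6794 CPM in members, 1789 in set A, 926 in set B and 1673 in all other epithelial barcodes, 4.06-fold over the last (3.99 to 4.13). It had a UMI in 330 of 337 members. Creld2, an ER stress-induced secretory protein, had 275 CPM in members and 44.5 in the others (6.17-fold, 5.57 to 6.85). Sdf2l1, a component of ER chaperone complexes, had 118 and 20 CPM. Herpud1, which serves ER-associated degradation, had 742 and 177 CPM, and Manf, a secreted ER stress protein, had 1070 and 270 CPM. The log2 ratios of Hspa5, Creld2, Sdf2l1, Herpud1 and Manf were 2.02, 2.50, 2.30, 2.04 and 1.97. Without deep barcodes they fell to 1.10, 1.13, 0.79, 1.16 and 1.26. With each barcode weighted equally, Hspa5 had 1.74 and Creld2 1.83. The intervals given do not cover such spread between barcodes.

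A wider list of ER chaperones and degradation factors was added after the data had been seen. It had 19 of 24 genes at least 2-fold higher, beside 4.39% of all genes compared, and a median log2 ratio of 1.63. Among them Hsp90b1, the ER chaperone GRP94, had 2446 CPM in members and 737 in the others. Dnajc3, an ER co-chaperone, had 396 and 100 CPM. The regulators Atf4 and Xbp1 stayed under 2-fold: Atf4 had 1060 and 648 CPM (log2 ratio 0.71), and Xbp1 had 325 and 181 CPM (0.82). Ddit3, which encodes CHOP, had 426 and 128 CPM (1.70), and Asns, an amino acid enzyme under ATF4, had 246 and 80.4 CPM (1.56). Without deep barcodes 8 of 15 genes of the first list and 9 of 23 of the wider list stayed at least 2-fold higher, and none was 2-fold lower. Of all genes compared in that setting, 101 of 5832 were higher. Later values of the ER chaperone list are those of the wider list. They carry its limit, since it was chosen after the data had been seen.

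Hypoxia response genes other than Ankrd37 were high as well. Of 23 genes compared, 21 were above a log2 ratio of 0, with a median of 0.88. At least 2-fold higher than in other epithelial barcodes were 10, beside 4.39% of all genes compared. Against set B barcodes 18 were at least 2-fold higher, beside 9.42% of all genes compared with set B. Ero1l, the ER oxidase that hypoxia induces, had 1945 CPM in members, 416 in set A, 144 in set B and 401 in all others (4.85-fold, 4.69 to 5.02). Bnip3, a mitophagy receptor, had 283 CPM in members, 72.9 in set A and 4.86 in set B. Ndrg1, a stress-induced differentiation gene, had 1400 CPM in members and 408 in the others, and Slc2a1, the glucose transporter GLUT1, had 835 and 266 CPM. Not all targets followed: Vegfa, the angiogenic factor, had 1204 and 667 CPM (log2 ratio 0.85), Adm, the vasodilator adrenomedullin, had 904 and 873 CPM (0.05), and Cited2, a relative of Cited1, had 234 and 247 CPM (-0.07). Without deep barcodes 5 of 23 genes were at least 2-fold higher, beside 101 of 5832 genes compared. The log2 ratio of Ero1l was then 1.22, against 2.26 with them.

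**Figure D2:**
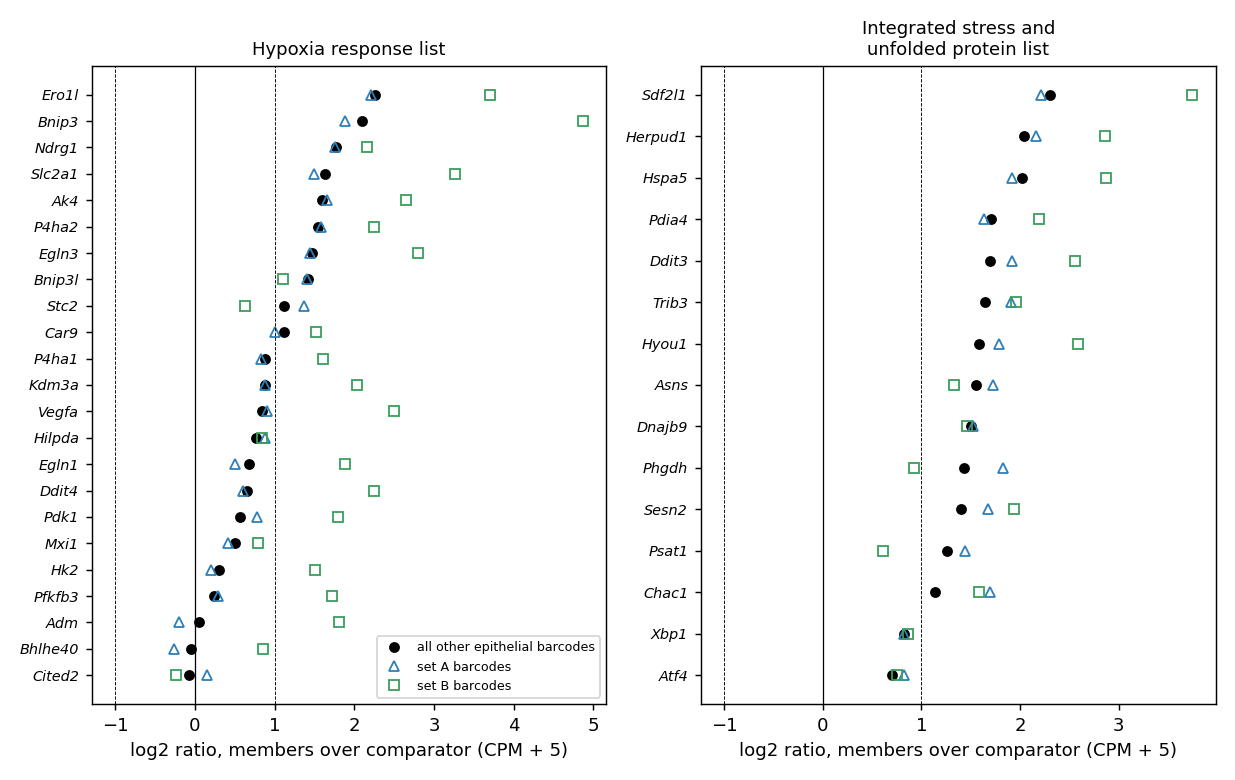
Log2 ratio of each compared gene of the hypoxia response list (left) and the integrated stress and unfolded protein list (right), members over all other epithelial barcodes (filled circles), set A barcodes (triangles) and set B barcodes (squares), library labelled control; dashed lines mark 2-fold. All 15 genes of the right panel lie above 0 against all other epithelial barcodes, while Adm, Bhlhe40 and Cited2 lie near 0 in the left panel.

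Glycolysis genes were also higher. All 14 compared were above 0 and 7 were at least 2-fold higher, with a median log2 ratio of 1.02. Pfkp, a phosphofructokinase, had 252 CPM in members and 60.9 in the others, and Slc16a3, the lactate exporter MCT4, had 212 and 56.9 CPM. Aldoa had 1106 and 512 CPM, whereas Gapdh had 1414 and 802 CPM and Ldha 977 and 510 CPM, both under 2-fold. Without deep barcodes 4 of 14 were at least 2-fold higher, beside 101 of 5832 genes compared. Genes of respiration were lower than in all other epithelial barcodes together. All 13 mitochondrially encoded genes were below 0 and 6 were at least 2-fold lower (median -0.88), and these genes made up 4.67% of the members' UMIs against 7.07% in set A, 6.44% in set B and 5.56% in barcodes of no set. The median mitochondrial share per barcode was 3.95% in members and 3.31% in no set, in the other direction. mt-Co1 differed little (17092 and 19362 CPM), and mt-Nd4l differed most (189 and 579 CPM). Of 20 nuclear genes of oxidative phosphorylation 19 were below 0, but 1 was 2-fold lower (Ndufa1, 39.2 and 95.0 CPM), with a median of -0.50. This list took 0.362% of UMIs in members, 0.564% in set A and 0.649% in set B but 0.220% in no set. The mitochondrial calcium list, to which Efhd1 belongs, had none of 11 other genes past 2-fold. For this list and the nuclear one such counts were near the shares over all genes compared, 4.39% higher and 5.85% lower.

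Heat shock and immediate early genes were low in members. In the dissociation response list, genes known to rise during enzymatic digestion, 0 of 15 were above a log2 ratio of 0 (median -0.98). At least 2-fold lower were 7 of 15, beside 5.85% of all genes compared. Hspa1a, the inducible cytosolic HSP70, had 54.3 CPM in members, 918 in set A, 147 in set B and 738 in all others. Hspa1b, its near-identical copy, had 154, 1525, 664 and 1317 CPM, and reads of the pair may have been split between them. Egr1, an immediate early transcription factor, had 187 CPM in members and 763 in the others. A heat shock list added after the data had been seen had 8 of 10 genes at least 2-fold lower and 0 higher. Without deep barcodes 5 of 10 were at least 2-fold lower, beside 232 of 5832 genes compared. Cytosolic and ER chaperones thus stood on opposite sides in these sums. Per barcode, the members' heat shock level was not the lowest: the heat shock median was 16.1 UMIs per 10000 in members, 33.0 in set A and 12.9 in barcodes of no set.

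**Figure D3:**
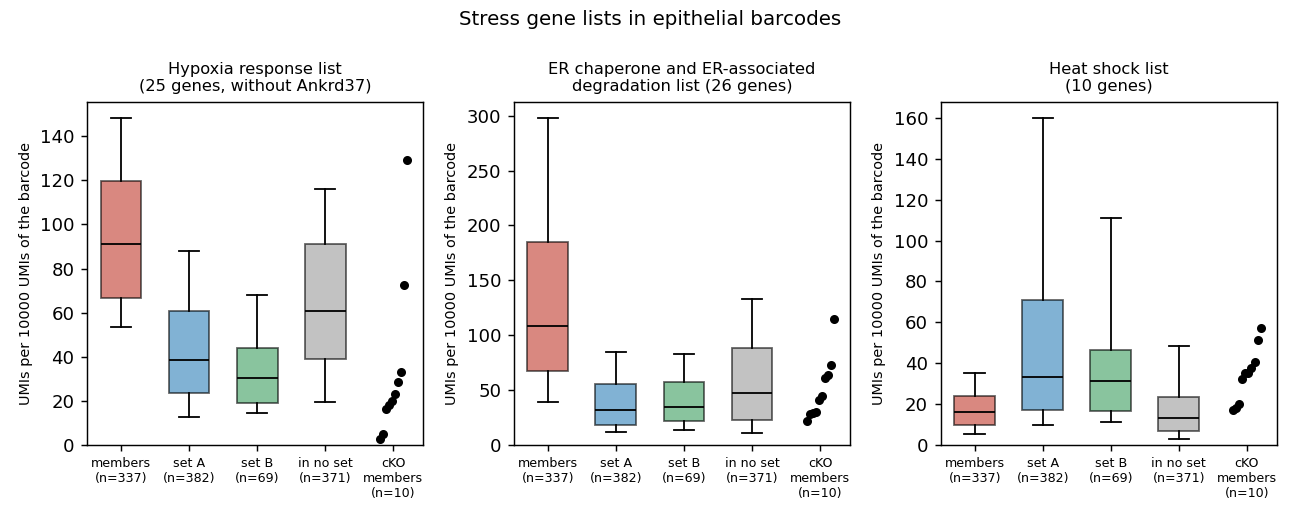
UMIs per 10000 of each barcode on the hypoxia response, ER chaperone and heat shock lists; boxes span the 25th to 75th percentile with the median as a line and whiskers the 10th to 90th percentile of control barcodes, and points are the 10 cKO members. The medians of members are 91.0, 109 and 16.1, those of set A 38.3, 32.1 and 33.0. The ER chaperone and heat shock lists were added after the data had been seen.

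The differences in the ER and hypoxia lists also stood in single barcodes. The median ER chaperone share was 109 UMIs per 10000 in members, 32.1 in set A, 34.8 in set B and 47.5 in barcodes of no set. For the hypoxia list the medians were 91.0, 38.3, 30.2 and 60.9. They were 74.4, 20.2, 23.5 and 39.5 for the integrated stress and unfolded protein list. After thinning to 1000 UMIs, Ero1l had a UMI in 59.6% of members, 24.1% of set A, 17.4% of set B and 32.9% of the barcodes in no set. The last group had the shallowest barcodes and stood between the members and set A on these lists. Ero1l in empty droplets was at 336 CPM, against 401 in other epithelial barcodes and 1945 in members.

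Both programmes were higher in barcodes with more set C UMIs. In control epithelial barcodes thinned to 1000 UMIs, 823 had 0 set C UMIs, 236 had 1, 68 had 2 and 32 had 3 or more. The ER chaperone list took 0.65%, 1.01%, 1.42% and 1.77% of UMIs in these 4 bins, and the hypoxia list 0.59%, 0.79%, 0.99% and 1.02%. The integrated stress and unfolded protein list took 0.44%, 0.66%, 0.89% and 1.09%. Hspa5 went from 1914 to 3212, 4515 and 5719 CPM. Full depth moved with the bins, with medians of 4694, 4754.5, 23984.5 and 25158 UMIs, and its part was not tested. Within the 337 members the relation was weak: the set C sum correlated with the hypoxia list at r = 0.11 and with the ER chaperone list at r = 0.083, while those lists, without Ero1l in the second, correlated with each other at r = 0.29. These points share a library and hold few counts each.

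**Figure D4:**
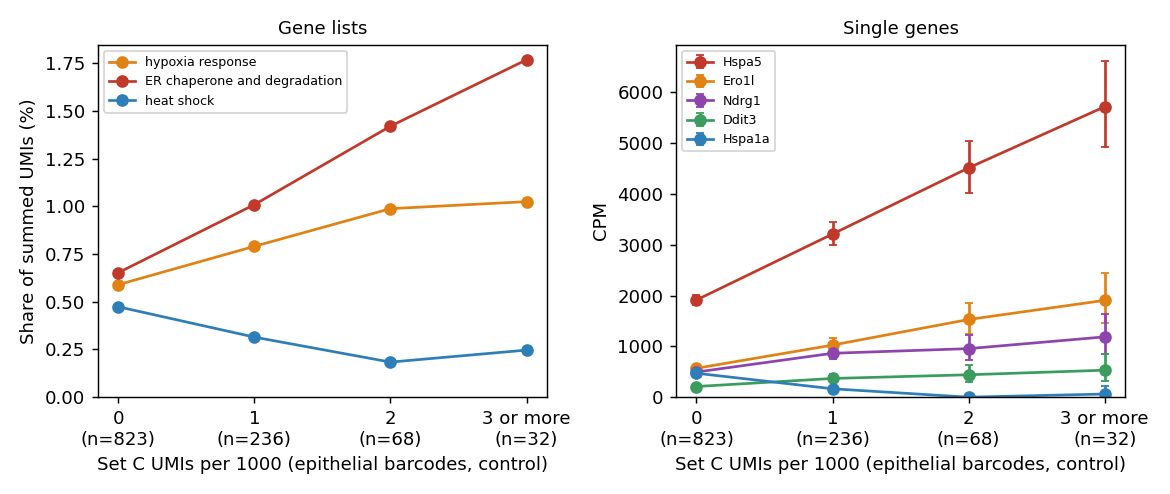
Control epithelial barcodes thinned to 1000 UMIs, binned by set C UMIs (horizontal axis): share of summed UMIs on 3 gene lists (left, %) and level of 5 genes (right, CPM, bars are 95% Poisson intervals). Hspa5 goes from 1914 CPM at 0 to 5719 CPM at 3 or more set C UMIs, and the ER chaperone list from 0.65% to 1.77%. The ER chaperone and heat shock lists were added after the data had been seen.

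Over all genes, those most like the set C sum across the 1159 thinned control barcodes were Actb (r = 0.26), Hspa5 (0.26), Ero1l (0.24), Manf (0.24), F3 (0.23), Hsp90b1 (0.23), Basp1 (0.22), Dstn (0.19), Actg1 (0.19) and Herpud1 (0.19), out of 2781 ranked. These correlations are low and are given as a description only. F3, which encodes tissue factor, had 3653 CPM in members and 1374 in the others. Basp1, a membrane-bound signalling protein, had 817 and 220 CPM.

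Members differed among themselves by which gene led. Efhd1 led in 126 control members, Ankrd37 in 84 and Cited1 in 73, and 54 had a tie. The hypoxia list took 1.01%, 1.10% and 1.06% of UMIs in the first 3 groups, and 0.87% in the tied group. The ER chaperone list took 2.13% where Efhd1 led, 2.02% where Ankrd37 led, 1.55% where Cited1 led and 1.07% in ties. Median depth differed along with this, from 26245 UMIs where Ankrd37 led to 5142.5 in ties. The 85 members with no Ankrd37 UMI were shallow (median 3683 UMIs) and carried less of both programmes: 0.79% hypoxia and 1.03% ER chaperone UMIs, against 0.52% and 0.57% in other epithelial barcodes. Barcodes of no set, nearer to them in depth (median 2794 UMIs), had 0.66% and 0.67%. In the 85 members Hspa5 had 3479 CPM and Ero1l 990 CPM, against 1848 and 598 CPM in no set. Bnip3 had 63.0 CPM, near the 62.2 CPM of the other epithelial barcodes and the 65.2 CPM of no set. The 70 members with exactly 2 set C UMIs (median depth 3575.5 UMIs) had 0.75% hypoxia and 0.85% ER chaperone UMIs, also nearer to no set than all members were.

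Members lay together in genes that the rule did not use. With the rule and gate genes left out, 63.7% of the 15 nearest neighbours of a control member were members on average, against 27.8% of all epithelial barcodes. Members made up 13.1% of the neighbours of set A barcodes, 11% for set B and 27.7% for barcodes in no set. Such grouping was not particular to members. Of the neighbours of control set A barcodes 62.1% were set A, against 31.5% of all epithelial barcodes. For set B these were 31.8% and 6.56%, and for no set 46.8% and 34.2%. For 64.1% of control members more than 50% of neighbours were members, so the group was concentrated without a sharp edge. Along the third principal component, whose leading genes were Herpud1, Manf, Ero1l, Basp1 and Pdia6 on one side and Fosb and Hspa1b on the other, medians were 4.29 for members, -3.07 for set A, -2.09 for set B and -0.23 for no set. That component held 1.95% of the variance and correlated with log10 depth at r = 0.37. Components 1 and 2 correlated with log10 depth at 0.30 and -0.38, and the part of depth in the neighbour shares was not tested.

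**Figure D5:**
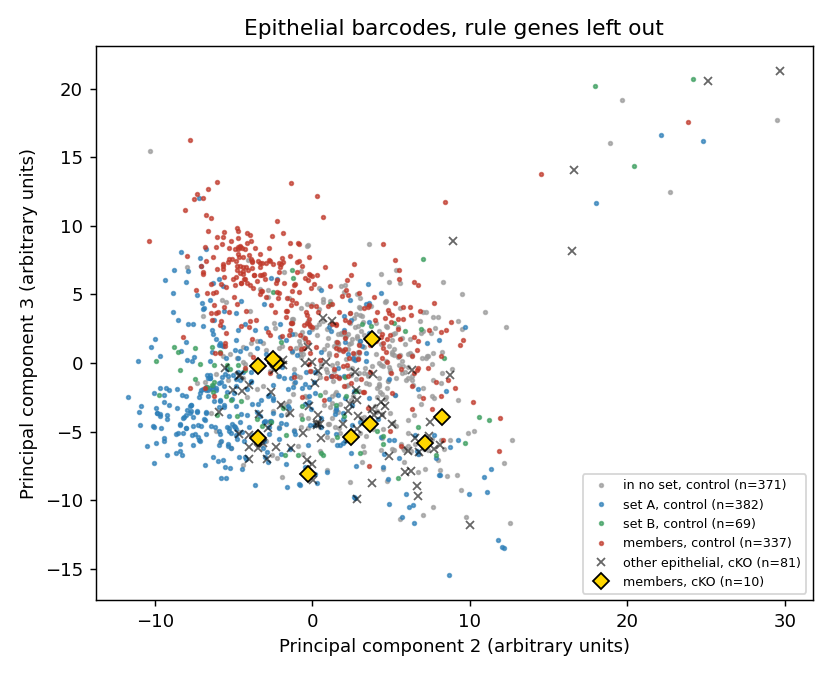
Epithelial barcodes of both libraries on principal components 2 and 3 (arbitrary units), computed without the rule and gate genes and coloured by set. Control members have a median of 4.29 on component 3 and set A barcodes -3.07; the 10 cKO members lie between -8.10 and 1.74, and 248 of 337 control members above the highest of them.

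Several secretory and transport genes were lower in the members than in set A barcodes. Members had to hold fewer UMIs on Cxcl17, Clca1 and Car12 than on set C, and set A barcodes more. How far that choice set these differences was not tested. As shares of UMIs, the transport, antimicrobial and steroid lists were not lower in members than in barcodes of no set, though Pgr was lower. Of 12 genes of epithelial transport 6 were at least 2-fold lower than in all other epithelial barcodes and 0 higher, and the list took 0.108% of UMIs in members, 0.257% in set A, 0.278% in set B and 0.108% in no set. Aqp5, a water channel, had 62.9 CPM in members, 254 in set A and 56.2 in no set, and Car2, a carbonic anhydrase, had 145, 479 and 133 CPM. Of 13 antimicrobial and mucosal genes 3 were at least 2-fold lower and 0 higher, and the list took 1.03% of UMIs in members, 1.47% in set A, 1.10% in set B and 0.565% in no set. Wfdc2 had 688 CPM in members, 2079 in set A and 603 in no set, and Ltf had 1428, 1750 and 682 CPM. Of 12 steroid receptor and oestrogen-induced genes 4 were at least 2-fold lower and 0 higher, with 0.831% of UMIs in members, 1.26% in set A, 0.894% in set B and 0.470% in no set. Esr1, the oestrogen receptor, had 67.3 CPM in members, 138 in set A, 66.6 in set B and 69.7 in no set, and Pgr, the progesterone receptor, had 13.9, 36.2, 16 and 35.2 CPM. Among 16 transcription regulators, 3 were at least 2-fold lower and 0 higher. Beside these list counts, 4.39% of all genes compared were higher and 5.85% lower. Sox17, a regulator of uterine epithelium, had 29.5 CPM in members and 108 in the others, and Klf5 had 815 and 465 CPM.

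The interferon and MHC class I lists passed 2-fold about as seldom as all genes compared, of which 4.39% were higher and 5.85% lower. Of 23 interferon-stimulated genes 1 was at least 2-fold lower (Cxcl10, 112 and 422 CPM) and 0 higher, with a median log2 ratio of -0.08. Of 11 MHC class I genes 0 passed 2-fold in either direction. In the NF-kB and interleukin 1 list 4 of 12 were at least 2-fold lower, such as Cxcl2 (35.3 and 150 CPM), whereas Il1a, an alarmin, had 227 CPM in members and 138 in the others. Junction genes included 2 of 14 at least 2-fold higher, Cldn10 (209 and 93.6 CPM) and Gja1 (174 and 81.1 CPM).

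The lowest genes relative to other epithelial barcodes included cornified envelope and detoxifying genes. Sprr2b, a cornified envelope precursor of the family used in set B, had 8.38 CPM in members, 123 in set A and 803 in set B, and Sprr2e had 4.51, 25.2 and 427 CPM. Nqo1, a quinone reductase, had 1.29, 28.0 and 162 CPM, and the iron exporter Slc40a1 had 22.4, 194 and 214 CPM. Proliferation genes were low, with Top2a at 2.32 CPM in members and 39.2 in the others and Ube2c at 2.58 and 34.4 CPM. Those last 2 genes and Sprr2e depended on deep barcodes: without them the log2 ratios were 0.15 for Top2a, 0.23 for Ube2c and 0.13 for Sprr2e, against -2.59, -2.38 and -3.16 with them. Some of the highest ratios rested on 1 barcode. Of the members' Hbb-bs UMIs, 501 of 520 came from 1 barcode of 75727 UMIs that also gave 462 of 483 Hba-a1 UMIs. For Ccl22, 184 of 192 UMIs came from a barcode with 180 UMIs on the MHC class II list and 50 on the dendritic cell list.

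In the library labelled cKO the 3-gene label did not hold. Its 10 members had 108 UMIs of Efhd1, 3 of Cited1 and 3 of Ankrd37. Efhd1 had a UMI in 10 of 10, Cited1 in 1 and Ankrd37 in 1, and 0 of 10 members had all 3 genes. The deepest cKO member, at 84439 UMIs, had 76 Efhd1 UMIs and none of the other genes. The next, at 48625 UMIs, had 3 Cited1 and 7 Efhd1 UMIs and held 33 of the 45 Ero1l UMIs of these members. Bnip3 had 0 UMIs in all 10, which allows up to 16.4 CPM at 3 counts, and Lcn2 had 25 UMIs in 4 of them. Hspa5 had 161 UMIs in the 182948 UMIs of these barcodes, with at least 1 in each. Members made up 15.3% of their neighbours, and cKO barcodes 54.7%, against 7.28% of all epithelial barcodes. With fewer than 20 members in this library, levels were not compared between the libraries' members.

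The set C rule did not choose the whole of the epithelial barcodes, but its genes and the lists were chosen with earlier results of these data known. The ratios between libraries are therefore a description too. Over all epithelial barcodes, Cited1 had 2642 UMIs in the control library and 4 in the cKO library, or 148 and 2.89 CPM (51.3-fold, 20 to 188). Ankrd37 had 4075 and 13 UMIs, or 229 and 9.39 CPM (24.3-fold, 14.2 to 45.8). Efhd1 was far closer, with 4156 and 235 UMIs, or 233 and 170 CPM (1.37-fold, 1.20 to 1.57). The cKO sums rested much on a few deep barcodes. The deepest cKO member, at 84439 UMIs, held 76 of those 235 Efhd1 UMIs. Set B barcodes of 172115 and 260185 UMIs also weighed heavily in the 1384638 UMIs of cKO epithelium. The interval does not cover this, and 170 CPM need not be a typical level per barcode. Lcn2 was 22.0-fold higher in the control library (19.4 to 25), Ero1l 10.3-fold and Hspa5 4.05-fold, whereas Hspa1a was 1.09-fold (0.998 to 1.19). The mix of classes differed too. Set B barcodes held 682227 of 1384638 epithelial UMIs in the cKO library and 1441318 of 17827436 in the control library. Control set B barcodes had 144 CPM of Ero1l and 926 of Hspa5, beside 104 and 964 in all cKO epithelial barcodes. For Lcn2 these were 3101 and 183 CPM. The part of the mix in these folds was not tested. Among epithelial barcodes that were not members, Ero1l was 4.87-fold higher in the control library, Hspa5 1.71-fold and Hspa1a 1.63-fold (1.50 to 1.78). The rule removed 337 of 1159 control barcodes and 10 of 91 cKO barcodes, which bears on these ratios. In Ptprc-positive cells without epithelial UMIs the Ero1l ratio was 0.994 (0.898 to 1.10), and in Pdgfra-positive cells 0.894 (0.806 to 0.992). Other genes differed outside the epithelium too: in the Ptprc-positive cells Ankrd37 was 6.36-fold higher in the control library (2.61 to 18.7), Bnip3 3.68-fold (2.78 to 4.94) and Lcn2 2.34-fold (1.49 to 3.75). In the Pdgfra-positive cells Lcn2 was 8.28-fold higher (3.95 to 19.4), while Bnip3 was at 0.809-fold (0.580 to 1.11) and Ankrd37 at 1.26-fold (0.667 to 2.35). Free RNA differed with the epithelial share: empty droplets had 38.5 CPM of Cited1 in the control library and 1.64 in the cKO library, and 1072 and 20.3 CPM of Lcn2. Its part in the levels of non-members and of other cell types was not tested, and a difference between 2 pools cannot be told apart from a difference between preparations.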

How the data were processed

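The authors deposited unfiltered UMI counts per gene and barcode for 2 libraries of 32285 genes, with no normalization, made with Cell Ranger. Its version is 4 per the file headers and 6.1.1 per the submitters' processing notes, which name the mm10 build. Depth was 45035801 and 34261441 UMIs. Barcodes were selected by the stated rule, with set A and set B barcodes by the same rule, and UMIs were summed per group, scaled to CPM and compared as log2 ratios after adding 5 CPM. Genes of the rule and gate were left out of the counts of genes. Shares carry exact (Clopper-Pearson) intervals, ratios exact conditional intervals, all at 95% and for counting error only. Neighbours (15) came from 20 principal components of 1500 variable genes. Empty droplets were barcodes under 100 UMIs. Scripts used Python 3.11.15, numpy 2.4.6, scipy 1.17.1, pandas 2.3.3, scikit-learn 1.9.0 and matplotlib 3.10.9, and were tested on simulated data. Promoters came from RefSeq (GRCm38.p6), where the table lists Ero1l as Ero1a.

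Named genes were the rule genes, Lcn2, Prickle1, the 15 highest and 15 lowest ratios over other epithelial barcodes, the 8 highest and 8 lowest over set A and set B, the 10 genes most like set C, and of each list the extremes with up to 4 more of highest level. Not every gene so chosen is printed. Ddit3, Asns, Egr1, Cd68, Esr1, Pgr, Foxa2 and Gja1 were named outside that rule after their values were seen. The members and lists were chosen with earlier results of these data known. Alternatives changed the cell limits, the rule, the scaling, the pseudocount, the gene minimum and the weighting of barcodes. Doublets were not removed; no doublet caller was run.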

Additional observations from a re-analysis of the deposited data

How the results depend on the processing

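The share of control epithelial barcodes that were members, 29.1%, was 32.8% with a mitochondrial limit of 10%, 32.4% with an epithelial gate of 6 UMIs, 23% with a set C minimum of 3 UMIs and 8.20% after thinning. It was 22.7% without Cited1, 19.2% without Efhd1 and 21.8% without Ankrd37 in set C. The cKO share of 11% was 1.10% after thinning and 2.20% without Efhd1. Against other epithelial barcodes (254 genes higher, 339 lower), median of ratios scaling gave 438 higher, a pseudocount of 20 CPM gave 145 and 151, a minimum of 50 CPM gave 196 lower, no minimum 510 lower, per-barcode means 131 and 173, leaving out deep barcodes 101 higher, and members with 0 Ankrd37 UMIs 534 and 913. Against set A (327, 390), median of ratios scaling gave 495 higher, a pseudocount of 20 CPM 175 and 174, and a minimum of 50 CPM 226 lower. Against set B (566, 700), these gave 363 and 345 for the pseudocount and 386 lower for the minimum, and leaving out deep barcodes gave 380 lower.

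Signs turned for Lcn2 with per-barcode means (0.17) and, without deep barcodes, for Hba-a1 (-0.30), Hba-a2 (-0.58), Hbb-bs (-0.93), Hbb-bt (-0.22), Sprr2e (0.13), Top2a (0.15) and Ube2c (0.23). Hbb-bs also turned without its top barcode (-0.35). In members with 0 Ankrd37 UMIs, Ankrd37 (-4.11, by construction), Hbb-bs (-0.39) and Hbb-bt (-0.056) turned. The cause of these changes was not tested. The leave-out of a top barcode and the members with 0 Ankrd37 UMIs were chosen after seeing the data. The median log2 ratio kept its sign over 11 alternatives for the hypoxia (0.51 to 1.05), integrated stress and unfolded protein (1.00 to 1.73), ER chaperone (0.63 to 1.80), glycolysis (0.46 to 1.20), heat shock (-2.79 to -1.10) and mitochondrially encoded (-1.04 to -0.71) lists. These medians were taken over the genes of the main comparison. The alternatives with a minimum of 50 CPM and with no minimum therefore could not change them. Alternatives for members between the libraries were not run, with 10 members in the cKO library. No paired analysis was possible because the labels give no replicate numbers and each group is 1 library. Depth limits the low genes, and no interval covers variation between mice.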
